A study of Mus musculus with 8 samples.

Results

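The 3p arms of the miR-290 to miR-295 cluster are the mature miRNAs cut from the 3′ side of the cluster's hairpins. The 9 listed in the deposited count table were taken by name, out of 1915 mature miRNAs in that table: mmu-miR-290a-3p, mmu-miR-290b-3p, mmu-miR-291a-3p, mmu-miR-291b-3p, mmu-miR-292a-3p, mmu-miR-292b-3p, mmu-miR-293-3p, mmu-miR-294-3p and mmu-miR-295-3p. All 9 passed the abundance filter of the test. Of these, mmu-miR-291b-3p had no count in the knockout libraries and passed through the groups where it was detected, so its calls are a description and support nothing.

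Small RNA was sequenced from mouse embryonic stem cells of the 129/Ola background in 8 libraries, 2 in each of 4 groups. The wild type group is the E14 line (libraries A and B). The knockout group is 1 library from each of 2 Ago2 knockout lines, called 1 and 2. The AGO1 line carries an inducible ectopic AGO1 in an Ago2 knockout background, and its genotype label, Ago2KO1-AGO1, names line 1. It was sequenced without doxycycline (uninduced, A and B) and after induction with doxycycline at 1 µg/mL (induced, A and B). All 4 AGO1 libraries carry the same line name, so they stand for 1 line, and the AGO1 line alone was kept in puromycin at 2 µg/mL. All cells were grown in serum with LIF on gelatine. The labels do not say whether libraries A and B came from separate cultures, so p-values measure only the spread between these libraries, which may be technical.

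A hairpin precursor yields a 5p and a 3p arm, and an Argonaute protein (AGO1 to AGO4 in mammals) loads 1 of them and uses it to repress matching mRNAs. AGO2 is the member known for slicing its targets. The miR-290 to miR-295 cluster is the most abundant miRNA cluster of mouse embryonic stem cells and is shut down as they differentiate. Targets are chosen mainly by the seed, bases 2 to 8 of the mature miRNA. Several 3p arms of the cluster, with a seed that begins AAGUGC, are known to promote the entry of embryonic stem cells into S phase by repressing cell cycle inhibitors such as Cdkn1a.

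The mature sequences show which members share a seed and so could share targets. RefSeq (GRCm38.p6) held 8 of the 9 by name. They are printed 5′ to 3′ with the seed in capitals, and mmu-miR-292a-3p is given by name only. The first set has the seed AAGUGCU.
mmu-miR-295-3p: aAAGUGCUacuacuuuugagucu
mmu-miR-294-3p: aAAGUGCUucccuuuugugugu
mmu-miR-291a-3p: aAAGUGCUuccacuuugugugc
The next pair shares the first 6 of these 7 bases.
mmu-miR-290a-3p: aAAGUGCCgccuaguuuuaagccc
mmu-miR-291b-3p: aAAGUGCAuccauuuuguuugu
The remaining 3 have other seeds.
mmu-miR-293-3p: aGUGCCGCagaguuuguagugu
mmu-miR-290b-3p: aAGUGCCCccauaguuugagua
mmu-miR-292b-3p: aAGAGCCCccaguuugaguau

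The motif AAGUGC stood at bases 2 to 7 of 8 of the 1621 mature miRNAs of the count table with a RefSeq sequence (0.4935%), and 5 of those 8 were members. Searched anywhere in the mature strand, as written, it was found in 20 (1.234%), 6 of them members. Without a sequence held by name, mmu-miR-292a-3p was not searched, so neither count says whether it carries the motif. Compared base by base from the 5′ end, mmu-miR-294-3p differed at 3 of 22 positions from each of mmu-miR-291a-3p and mmu-miR-291b-3p, and the latter pair differed from each other at 4 of 22. By contrast mmu-miR-294-3p and mmu-miR-295-3p, with the same seed, differed at 10 of 22. The 8 sequences were 21 to 24 bases long, with 31.82 to 50% G and C.

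All the hairpins lie on chromosome 7 of GRCm38, from 3218626 (the start of Mir290a) to 3220841 (the end of Mir295). Mir290a, Mir291a, Mir292, Mir291b, Mir293, Mir294 and Mir295 follow each other on the plus strand. Mir290b and Mir292b lie on the minus strand inside Mir290a and Mir292. From Mir291a onwards the hairpins also overlap annotated exon and UTR sequence of Nlrp12, a gene on the minus strand. As a result of this layout mmu-miR-290b-3p covers 21 of the same bases as mmu-miR-290a-5p, and mmu-miR-292b-3p covers 19 of the same bases as mmu-miR-292a-5p. Likewise mmu-miR-290a-3p covers 22 of the same bases as mmu-miR-290b-5p. No position was held by name for mmu-miR-292a-3p, so its overlap with mmu-miR-292b-5p could not be looked up. The arms of miR-292a and miR-292b may therefore share more bases than given here. Whether the authors' counting used strand is not given in the sources used here, so values of the opposite-strand arms are uncertain to that extent. Values of members as alike as mmu-miR-291a-3p, mmu-miR-291b-3p and mmu-miR-294-3p are uncertain as well. So are those of mmu-miR-291a-5p and mmu-miR-291b-5p, which differ only at their first and last bases.

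**Figure D1:**
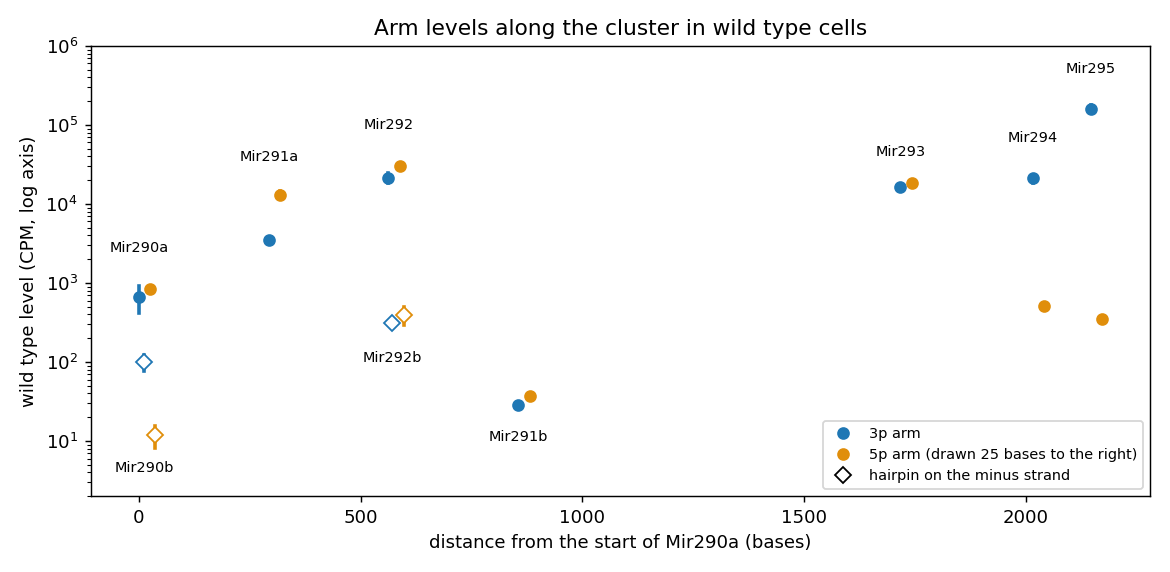
Level of both arms of each hairpin in wild type cells (CPM, log axis) against the hairpin's distance in bases from the start of Mir290a; points are means and vertical lines join the 2 libraries, and open diamonds mark hairpins on the minus strand. The 3p arm of Mir295, the last hairpin, stands highest at a mean of 160536 CPM, and both arms of Mir291b, 856 bases from the start, are below 40 CPM.

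Levels are in CPM, counts scaled to a common total of tested miRNAs with TMM factors, as mean ± SD with n = 2. Mature miRNAs have nearly the same length, so levels were compared between members without a length term. The most abundant member, mmu-miR-295-3p, ranked second of all miRNAs in both wild type libraries and first in the other 6. Its level was 160536 ± 22460 CPM in wild type, 140073 ± 8790 CPM in knockout, 136710 ± 12060 CPM in the uninduced AGO1 line and 167130 ± 17832 CPM in the induced line. That was 67.5 to 71.7% of the counts of the 9 members, by group mean.

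Below it, ordered by the mean over the 8 libraries, came mmu-miR-292a-3p at 29711 CPM, mmu-miR-294-3p at 23599 CPM, mmu-miR-293-3p at 10728 CPM, mmu-miR-291a-3p at 2295 CPM and mmu-miR-290a-3p at 1286 CPM. The least abundant were mmu-miR-292b-3p at 228 CPM, mmu-miR-290b-3p at 67.9 CPM and mmu-miR-291b-3p at 10.9 CPM. Each neighbour in this order stood above the next in all 8 libraries, with 2 exceptions. The level of mmu-miR-292a-3p exceeded that of mmu-miR-294-3p in 7 of 8 libraries, and that of mmu-miR-291a-3p exceeded that of mmu-miR-290a-3p in 6 of 8. In wild type mmu-miR-291a-3p stood above mmu-miR-290a-3p in both libraries, and in both induced ones, and their order turned in knockout line 2 and uninduced B. The ratio of mmu-miR-290a-3p to mmu-miR-291a-3p counts was 0.241 and 0.133 in wild type (A, B), 0.629 and 1.08 in the knockout (line 1, line 2), 0.83 and 1.26 in uninduced A and B, and 0.53 and 0.732 in induced A and B.

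**Figure D2:**
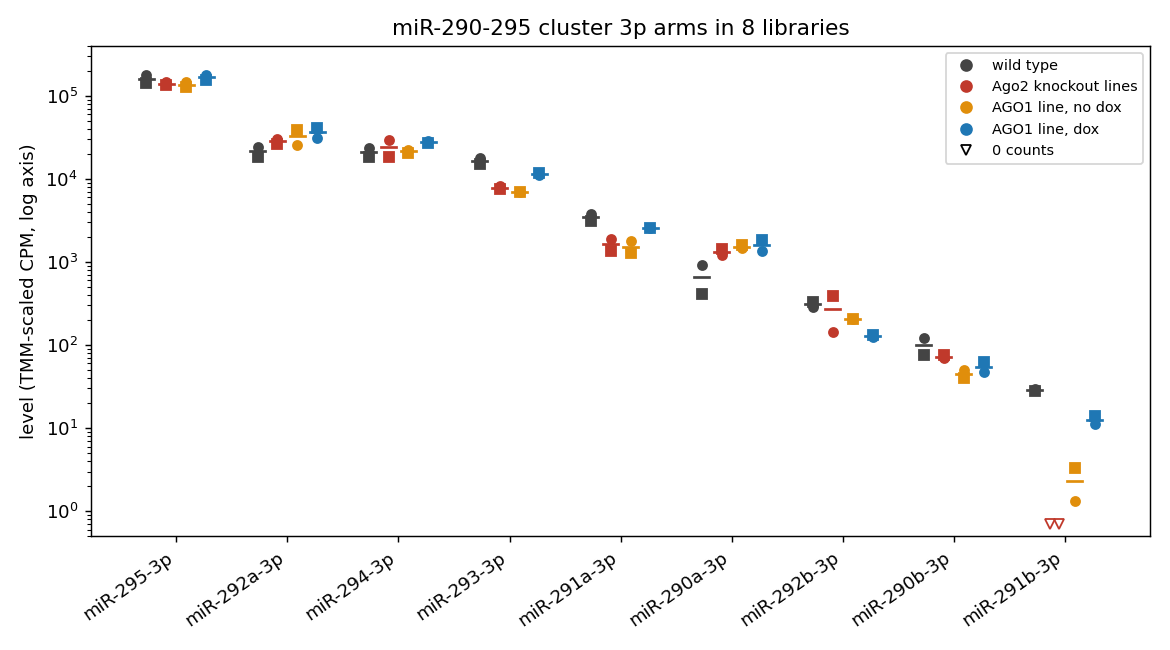
Level of each member (TMM-scaled CPM, log axis) in the 8 libraries; circles are libraries A or line 1, squares libraries B or line 2, short lines group means, and open triangles libraries with 0 counts. Levels run from 179739 CPM for miR-295-3p in induced A down to 0 counts for miR-291b-3p in both knockout lines.

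Together the 9 members held 21.0% ± 1.41 of all miRNA counts in wild type, 23.7% ± 0.949 in knockout, 20.6% ± 0.257 in the uninduced line and 22.0% ± 0.648 in the induced line (SD, n = 2). Both knockout libraries, at 24.4% (line 1) and 23.0% (line 2), held more than any other library, where the highest was 22.4% in induced A. With 2 libraries against 2, no exact permutation p below 0.333 is possible, so none was computed. Within the total the make-up differed as well. For mmu-miR-293-3p the share of the 9 members' counts was 7.39% ± 0.131 in wild type, 3.88% ± 0.171 in knockout, 3.47% ± 0.133 in the uninduced line and 4.66% ± 0.406 in the induced line. For mmu-miR-292a-3p it was 9.54% ± 0.526, 13.9% ± 0.0658, 16.2% ± 4.97 and 14.8% ± 3.63 in the same order. These are bulk libraries, where fewer cells of a type and less RNA per cell cannot be told apart.

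Libraries held 163467 to 1326638 counts, and the shallowest were knockout lines 2 and 1 and uninduced B. Rank correlation within a group was 0.902 in knockout and at least 0.973 in the other groups. Up to 3 counts can lie behind a count of 0, equal to 2.57 CPM in the deepest library and 15.1 CPM in the shallowest (counting error only). The members are themselves defining miRNAs of embryonic stem cells, and all but mmu-miR-291b-3p were counted in every library. Of marker miRNAs of other cell types, 3 of 6 muscle, 1 of 7 neural, 2 of 6 blood, 1 of 6 fibroblast and 1 of 4 endoderm miRNAs had no count in any library. Those at 0 included miR-1a-3p, miR-206-3p, miR-451a, miR-223-3p and miR-122-5p. Every other miRNA of these lists was counted in at least 1 library. Some lists moved with the groups: the summed level of 6 blood miRNAs was 1894 to 1921 CPM in wild type, 5724 to 6425 CPM in knockout, 6246 to 6772 CPM in the uninduced line and 3743 to 3900 CPM in the induced line. The 6 fibroblast miRNAs summed to 4269 to 4983 CPM, 1586 to 1679 CPM, 1579 to 1656 CPM and 2643 to 2893 CPM, and the 7 neural miRNAs to 1666 to 2067 CPM, 916 to 959 CPM, 817 to 1182 CPM and 1059 to 1216 CPM. The 6 muscle miRNAs summed to at most 12.5 CPM in any library, and the 4 endoderm miRNAs to 1937 to 2878 CPM over all 8. The part of such cells in the members' values was not tested.

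The questions follow from the groups: what differs without AGO2, what differs in the AGO1 line before and after induction against wild type, how the uninduced line differs from the knockout lines, and what induction changes. Each miRNA was tested with edgeR's quasi-likelihood test, and a call is a Benjamini-Hochberg adjusted p under 0.05 over the 475 miRNAs tested. Changes are log2 fold changes ± SE, where the SE is approximate, derived from the fold change and its F value. The 3 comparisons with wild type share the same wild type libraries, so their calls are not independent of one another.

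In knockout against wild type, 1 of the 9 members rose (mmu-miR-290a-3p) and 3 fell (mmu-miR-291a-3p, mmu-miR-291b-3p and mmu-miR-293-3p). Over all miRNAs 25.5% were called higher and 32.2% lower, and the members' median change of -0.25 stood beside a median of -0.13 over all miRNAs tested. Without knockout line 2, 3 members rose and 4 fell, and with library totals in place of TMM factors 3 rose and 3 fell. In the uninduced line against wild type, 2 rose (mmu-miR-290a-3p and mmu-miR-292a-3p) and 4 fell (mmu-miR-290b-3p, mmu-miR-291a-3p, mmu-miR-291b-3p and mmu-miR-293-3p), against 25.9% higher and 33.3% lower of all, with medians of -0.60 for the members and -0.14 for all. Without uninduced B, 1 rose and 2 fell. In the induced line against wild type, mmu-miR-290a-3p and mmu-miR-292a-3p rose and mmu-miR-291b-3p, mmu-miR-292b-3p and mmu-miR-293-3p fell, against 19.2% higher and 19.8% lower of all, with medians of -0.44 and 0.01. In place of 5 members, 2 were called without either wild type library or without induced A, 3 without either uninduced library, and 0 without induced B. Over all miRNAs the calls went from 185 to between 75 and 105 without any 1 wild type or induced library. Nothing particular to the members is read from these counts. They include mmu-miR-291b-3p, which passed the filter through the groups where it was high, and without it 2, 3 and 2 members fell in the knockout, uninduced and induced groups.

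With induction, against the same line uninduced, 3 of 9 members rose (mmu-miR-291a-3p, mmu-miR-291b-3p and mmu-miR-293-3p) and none fell (2 rose without mmu-miR-291b-3p), where 21.1% of all miRNAs were called higher and 7.58% lower. The members' median was 0.29 and that of all was 0.03. Without uninduced B or induced B no member was called, and without induced A 1 was. Over all miRNAs the calls went from 136 to between 57 and 78 without any 1 uninduced or induced library. The balance of calls over all miRNAs depends on scaling here: 100 higher and 36 lower with TMM factors became 83 higher and 64 lower with library totals alone, which moved the median of all to -0.17. Between the uninduced line and the knockout lines edgeR called no member and no other miRNA (0% higher and 0% lower), though 61 miRNAs were called without knockout line 1 and 33 without line 2. At an unadjusted p under 0.05 it counted 72 miRNAs and none of the 9 members, whose smallest unadjusted edgeR p was 0.132. The DESeq2 Wald test called 5 miRNAs and no member.

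**Figure D3:**
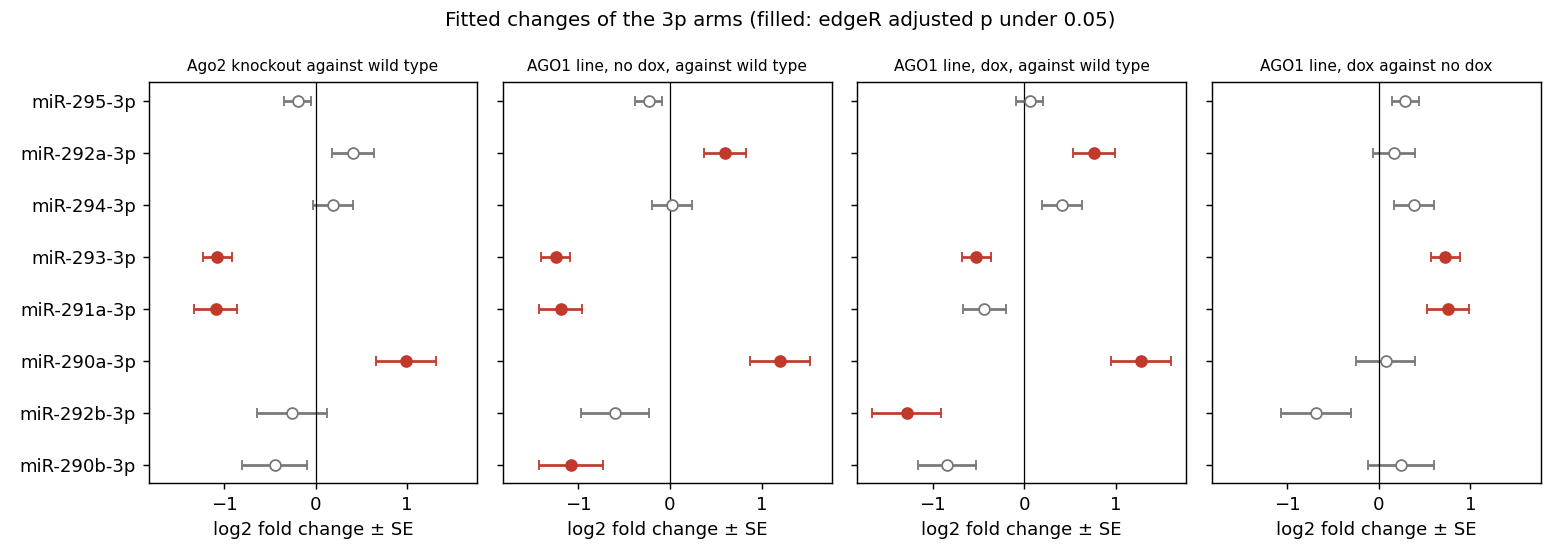
Fitted log2 fold change ± SE of 8 members in 4 comparisons (edgeR; filled red points have an adjusted p under 0.05, open grey points do not); miR-291b-3p is left out because it had 0 counts in knockout. In the first 3 panels miR-293-3p lies left of 0 and miR-290a-3p right of 0, and in the last miR-293-3p and miR-291a-3p lie right of 0.

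Of the 3 members with the seed AAGUGCU, mmu-miR-295-3p and mmu-miR-294-3p were not called in any of the 5 comparisons in the fit of all 8 libraries, while mmu-miR-291a-3p was called in 3. For mmu-miR-295-3p the libraries held 176418 and 144655 CPM in wild type (A, B), 146288 and 133858 CPM in the knockout (line 1, line 2), 145238 and 128182 CPM in uninduced A and B, and 179739 and 154521 CPM in induced A and B. Both induced libraries stood above both uninduced ones, and every other group overlapped wild type. The change was -0.20 ± 0.15 in knockout against wild type (edgeR adjusted p = 0.266) and 0.29 ± 0.15 with induction (adjusted p = 0.166). Without the abundance filter it was called higher with induction (adjusted p = 0.0219) and lower in the uninduced line against wild type (adjusted p = 0.0393), and so it was with the replicate block (adjusted p = 0.0255 and 0.0397).

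For mmu-miR-294-3p the levels were 23521 and 18560 CPM in wild type (A, B), 29614 and 18410 CPM in the knockout (line 1, line 2), 22405 and 20433 CPM uninduced, and 28623 and 27227 CPM induced. Knockout line 1 held the highest level and line 2 the lowest, so the knockout group spanned all the others. The knockout change was 0.19 ± 0.22 with both lines (edgeR adjusted p = 0.465) and 0.53 without line 2 (adjusted p = 0.0211), and with library totals in place of TMM factors it was 0.50 (adjusted p = 0.037). The induced line, at 0.41 ± 0.22 against wild type (edgeR adjusted p = 0.154), was called higher under 5 alternatives, among them the fits without either knockout line (adjusted p from 0.00206 to 0.0312). With induction the change of 0.38 ± 0.22 (adjusted p = 0.213) was called without the abundance filter and with the replicate block (adjusted p = 0.0381 and 0.0225).

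The third of the set, mmu-miR-291a-3p, fell in knockout and in the uninduced line and rose with induction. Its levels were 3830 and 3110 CPM in wild type, 1914 and 1339 CPM in the knockout (line 1, line 2), 1768 and 1268 CPM uninduced, and 2590 and 2541 CPM induced. Wild type was highest, the induced libraries came next, and neither overlapped the knockout or uninduced libraries. It fell by 1.09 ± 0.24 in knockout (edgeR adjusted p = 0.00349) and by 1.19 ± 0.24 in the uninduced line (adjusted p = 0.00167). With induction it rose by 0.75 ± 0.23 (adjusted p = 0.0354), and the induced line was at -0.44 ± 0.23 against wild type (adjusted p = 0.154). Calls were lost without single libraries: the knockout call without wild type A (-0.75, adjusted p = 0.0622), the uninduced call without uninduced B (-0.76, adjusted p = 0.0751), and the induction call without uninduced B (0.38, adjusted p = 0.439), induced A (0.79, adjusted p = 0.126) or induced B (0.78, adjusted p = 0.138). Library totals also ended the induction call (0.55, adjusted p = 0.0621), and 3 alternatives called the induced line lower than wild type (adjusted p from 0.0292 to 0.0394).

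Summed over the 3 members, miRNAs with the seed AAGUGCU held 185047 ± 26477 CPM in wild type, 165712 ± 17118 CPM in knockout, 159647 ± 13808 CPM uninduced and 197620 ± 18854 CPM induced (SD, n = 2). Most of each sum was mmu-miR-295-3p. Outside the cluster the same seed was found in mmu-miR-302b-3p and mmu-miR-302d-3p, arms of the miR-302 and miR-367 cluster, which is known from later pluripotent cells of the early embryo. Together with their cluster they were rare: all 10 arms of that cluster summed to 77.2 to 86.4 CPM in wild type, 90.6 to 436 CPM in knockout, 457 to 530 CPM uninduced and 145 to 173 CPM induced. For mmu-miR-302d-3p the knockout lines disagreed, with 227 CPM in line 1 and 40.3 CPM in line 2, beside 30.9 and 21.6 CPM in wild type. Of its 5 arms that could be tested, 3 rose in knockout and 5 in the uninduced line against wild type, 1 rose in the induced line, and 3 fell with induction. Of all miRNAs 25.5%, 25.9% and 19.2% were called higher in those comparisons with wild type, and 7.58% lower with induction.

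Of the 8 members with a sequence here, 2 carry AAGUGC with another last seed base, and they are described in turn. For mmu-miR-290a-3p the levels were 922 and 415 CPM in wild type (A, B), 1204 and 1445 CPM in the knockout (line 1, line 2), 1467 and 1602 CPM uninduced, and 1373 and 1859 CPM induced. All 6 Ago2 knockout libraries stood above both wild type libraries, and wild type A was 2.22 times wild type B. It rose by 0.99 ± 0.33 in knockout (edgeR adjusted p = 0.0271), 1.20 ± 0.33 in the uninduced line (adjusted p = 0.00995) and 1.27 ± 0.33 in the induced line (adjusted p = 0.0126). With induction its change was 0.08 ± 0.32 (adjusted p = 0.897). Without wild type B all 3 calls were lost, at 0.51 (adjusted p = 0.155), 0.72 (adjusted p = 0.0592) and 0.80 (adjusted p = 0.066), and the induced call was also lost without induced B (1.16, adjusted p = 0.0744).

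The rarest member, mmu-miR-291b-3p, was counted 25 and 31 times in wild type (A, B), 0 in each knockout line, 1 in each uninduced library, and 13 and 14 in induced A and B. Wild type was highest, and the induced libraries, at 11.1 and 14.0 CPM, stood above the uninduced ones, at 1.33 and 3.31 CPM. Behind the 0 counts in knockout the floors were 7.48 CPM (line 1) and 15.1 CPM (line 2). Knockout therefore cannot be placed above or below the uninduced line, nor line 2 below the induced libraries. For knockout against wild type, the floor of 3 counts over the 2 knockout libraries was used, and the wild type count was taken as exact. On that basis mmu-miR-291b-3p was at least 4.72-fold lower in knockout than in wild type. With the counting error of both groups the lower 95% limit was 3.72-fold. The uninduced line held 2 counts against 56 in wild type, 14.0-fold lower per total count, with a 95% interval from 3.69 to 118. Induced libraries held 27 counts against those 2, a ratio of 5.69 with an interval from 1.43 to 49.4, and against wild type they were 2.45-fold lower, with an interval from 1.52 to 4.04. Intervals are exact and cover counting error only. edgeR called it in all 4 of these comparisons, with adjusted p = 0.00179, 0.00146, 0.0352 and 0.0474, which are given as a description because the filter kept it for the groups where it was high. The 2 calls of the induced group were lost with the DESeq2 Wald test (adjusted p = 0.206 and 0.406) and without any 1 of the wild type, uninduced or induced libraries, where adjusted p ran from 0.0623 to 0.322 for induction and from 0.0683 to 0.41 against wild type.

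Among members with other seeds, mmu-miR-293-3p changed in 4 of the 5 comparisons. Levels were 18083 and 15010 CPM in wild type (A, B), 8185 and 7574 CPM in the knockout (line 1, line 2), 6891 and 7057 CPM uninduced, and 11154 and 11875 CPM induced. No 2 groups overlapped, with wild type highest, induced second, then knockout and uninduced. The member fell by 1.07 ± 0.16 in knockout (edgeR adjusted p = 0.0004) and by 1.25 ± 0.16 in the uninduced line (adjusted p = 0.00012), and both calls held in each alternative run. It was lower by a smaller amount in the induced line (-0.52 ± 0.16, adjusted p = 0.0255) and rose with induction by 0.72 ± 0.16 (adjusted p = 0.00767). The induced against wild type call was lost without wild type A (-0.21, adjusted p = 0.431), either uninduced library (adjusted p = 0.0841 and 0.0939) or either induced library (adjusted p = 0.416 and 0.223). The induction call was lost without uninduced B (0.58, adjusted p = 0.139) or induced B (0.69, adjusted p = 0.0836).

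No sequence was held by name for the more abundant mmu-miR-292a-3p, so it is placed neither with the AAGUGC seeds nor with the other seeds. Against wild type this member went the other way from mmu-miR-293-3p. It held 24558 and 18389 CPM in wild type (A, B), 30494 and 26331 CPM in the knockout (line 1, line 2), 25975 and 39105 CPM in uninduced A and B, and 31185 and 41654 CPM in induced A and B. All 6 Ago2 knockout libraries were above both wild type libraries, with a wide spread inside the AGO1 line. The rise was 0.60 ± 0.23 in the uninduced line (edgeR adjusted p = 0.0441) and 0.76 ± 0.23 in the induced line (adjusted p = 0.026), while knockout was at 0.40 ± 0.23 (adjusted p = 0.153). Without wild type B neither rise was called (0.39, adjusted p = 0.278, and 0.56, adjusted p = 0.185), nor without uninduced B (0.49, adjusted p = 0.137) or induced B (0.67, adjusted p = 0.124) respectively. The knockout change was called without line 2 (0.54, adjusted p = 0.0175) with library totals (0.72, adjusted p = 0.0184), with TMM factors without the cluster (0.52, adjusted p = 0.04) and with only the 2 groups fitted (0.57, adjusted p = 0.0239). The uninduced call was also lost at a mean of at least 20 CPM (adjusted p = 0.0719) and on thinned counts (adjusted p = 0.0602). The ratio of mmu-miR-292a-3p to mmu-miR-293-3p counts, which needs no scaling, was 1.36 and 1.23 in wild type (A, B), 3.73 and 3.48 in the knockout lines, 3.77 and 5.54 uninduced, and 2.8 and 3.51 induced.

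The 2 minus-strand members were low in abundance. For mmu-miR-292b-3p the levels were 290 and 331 CPM in wild type, 145 and 393 CPM in the knockout (line 1, line 2), 205 and 205 CPM uninduced, and 123 and 132 CPM induced. Knockout line 2 was highest and line 1 lower than wild type and uninduced, and both induced libraries were below all others. It fell by 1.28 ± 0.37 in the induced line against wild type (edgeR adjusted p = 0.0219), but not without either wild type library (adjusted p = 0.104 and 0.0924) or either induced library (adjusted p = 0.148 and 0.138), nor on counts thinned to the smallest library (adjusted p = 0.103). The changes with induction (-0.69 ± 0.38, adjusted p = 0.202) and in the uninduced line against wild type (-0.60 ± 0.37, adjusted p = 0.185) were each called under 5 alternatives (adjusted p from 0.0102 to 0.0254 and from 0.0112 to 0.0355). Without line 2 it was also called lower in knockout (-1.06, adjusted p = 0.00333), where the value with both lines was -0.25 ± 0.38 (adjusted p = 0.577). Without line 1 the uninduced line was called lower than knockout (-0.93, adjusted p = 0.0334, against -0.34 with both).

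For mmu-miR-290b-3p the libraries held 121 and 76.5 CPM in wild type, 69.8 and 75.5 CPM in the knockout lines, 50.6 and 39.7 CPM uninduced, and 47.9 and 61.8 CPM induced. It was called lower in the uninduced line against wild type, at -1.08 ± 0.35 (edgeR adjusted p = 0.0211). The induced line, at -0.84 ± 0.32 against wild type (adjusted p = 0.0597), was called under 7 alternatives, among them library totals and the fits without either knockout line (adjusted p from 0.0189 to 0.0434). The uninduced call ended with the DESeq2 Wald test (adjusted p = 0.0705), on thinned counts (adjusted p = 0.135), and without single libraries: wild type A (-0.58, adjusted p = 0.231), uninduced A (-1.37, adjusted p = 0.0511), uninduced B (-0.74, adjusted p = 0.185), induced A (adjusted p = 0.0548) or induced B (-0.98, adjusted p = 0.0582). Its counts were 9.62 to 18.2% of those of mmu-miR-290a-5p, which covers the same bases on the other strand, in all 8 libraries. Counts of mmu-miR-292b-3p were 0.428 to 1.37% of those of mmu-miR-292a-5p.

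Both arms of a hairpin come from 1 precursor, so the ratio of 3p to 5p counts inside a library needs no scaling between libraries. It was tested in edgeR as arm by group over 195 hairpins with at least 10 counts in each arm, summed over the 8 libraries. Summed over the cluster the ratio was 3.50 ± 0.134 in wild type, 3.66 ± 0.177 in knockout, 3.99 ± 0.0944 uninduced and 3.86 ± 0.266 induced (SD, n = 2). Single hairpins differed widely: in wild type A the 3p arm held 99.8% of the counts of miR-295, 97.7% of miR-294, 47.3% of miR-293 and 20.8% of miR-291a.

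In knockout against wild type the 3p to 5p ratio of 1 of the 9 cluster hairpins rose (miR-290a) and that of 2 fell (miR-290b and miR-295), where 15.9% of all hairpins were called higher and 12.8% lower. For the uninduced line 2 rose (miR-290a and miR-292a) and 5 fell (miR-290b, miR-291a, miR-291b, miR-293 and miR-295), against 17.9% and 16.4% of all hairpins. For the induced line 2 rose (miR-290a and miR-292a) and 4 fell (miR-290b, miR-291a, miR-291b and miR-295), against 19% and 15.4%. With induction the ratio of miR-292b alone among the 9 was called, and it fell, against 3.59% higher and 2.05% lower of all. Between the uninduced line and knockout none of the 9 was called, against 0.513% higher and 0% lower of all, and 14 of the 195 hairpins had an unadjusted edgeR p under 0.05. Of the 9, those called in the uninduced line against wild type went from 7 to 3 without either wild type library and to 4 without uninduced B, induced A or induced B, and those in the induced line from 6 to 2 without induced B. Over all hairpins the calls in the uninduced line against wild type went from 67 to 40 without uninduced A, and those with induction went from 11 to between 2 and 7 without any 1 uninduced or induced library and to between 17 and 22 without any 1 of the others.

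At miR-290a the ratio was 1.05 and 0.521 in wild type (A, B), 2.13 and 2.71 in the knockout (line 1, line 2), 5.27 and 5.56 uninduced, and 3.26 and 4.25 induced. The groups did not overlap: the 5p arm was about as abundant as the 3p arm or more so in wild type and scarcer in every other library. Its log2 ratio rose by 1.68 ± 0.29 in knockout (edgeR adjusted p = 8.88e-05), 2.86 ± 0.29 uninduced (adjusted p = 1.23e-07) and 2.33 ± 0.28 induced (adjusted p = 1.29e-06), and these 3 calls held in each alternative run. Between the uninduced line and knockout the ratio differed by 1.18 ± 0.30 (adjusted p = 0.0719), which passed without knockout line 2 (1.34, adjusted p = 0.00387), without induced B (adjusted p = 0.0479) and without either wild type library (adjusted p = 0.00149 and 0.00185). Both arms took part: mmu-miR-290a-5p fell, with changes of -0.61 ± 0.19 in knockout (adjusted p = 0.022), -1.57 ± 0.20 uninduced (adjusted p = 0.000103) and -0.96 ± 0.19 induced (adjusted p = 0.00358).

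At miR-295 the ratio was 519 and 412 in wild type (A, B), 183 and 116 in the knockout (line 1, line 2), 216 and 134 uninduced, and 274 and 227 induced. Wild type was above every other library. The log2 ratio fell, with changes of -1.66 ± 0.33 in knockout (edgeR adjusted p = 0.000457), -1.43 ± 0.33 uninduced (adjusted p = 0.00179) and -0.89 ± 0.33 induced (adjusted p = 0.0397). The last call was lost without any 1 wild type or induced library (adjusted p = 0.0638 to 0.254). This difference was on the side of the rare arm: mmu-miR-295-5p, at 340 and 351 CPM in wild type and 657 to 1153 CPM in the other 6 libraries, rose by 1.49 ± 0.25, 1.23 ± 0.24 and 0.95 ± 0.24 (adjusted p = 0.000795, 0.00167 and 0.0123), while mmu-miR-295-3p was not called.

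At miR-290b the ratio was 7.85 and 9.44 in wild type, 2.55 and 0.938 in the knockout (line 1, line 2), 0.717 and 0.667 uninduced, and 1.4 and 1.82 induced. Here too wild type stood apart, but the 5p arm rested on 9 to 53 counts a library. The log2 ratio fell in knockout, uninduced and induced cells, with changes of -2.42 ± 0.57, -3.58 ± 0.50 and -2.40 ± 0.47 (edgeR adjusted p = 0.00209, 6.16e-06 and 0.000402), and the first call was lost without knockout line 2 (-1.73, adjusted p = 0.0655). The hairpin lies opposite miR-290a, and the ratios of the 2 moved in opposite directions. Reads of the 2 strands cannot be told apart unless counting used strand, which was not tested. Counts of mmu-miR-290b-5p were 1.68 to 5.57% of those of mmu-miR-290a-3p, which covers the same bases on the other strand.

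At miR-291a the ratio was 0.263 and 0.264 in wild type, 0.2 and 0.165 in the knockout lines, 0.199 and 0.113 uninduced, and 0.169 and 0.127 induced, so the 3p arm was the minor one throughout. Its log2 ratio changed by -0.80 ± 0.27 uninduced (edgeR adjusted p = 0.0297) and -0.85 ± 0.27 induced (adjusted p = 0.0181). The first was lost with only the 2 groups fitted (adjusted p = 0.0601) and without wild type A (adjusted p = 0.0546), wild type B (adjusted p = 0.0579) or uninduced B (-0.41, adjusted p = 0.283), and the second without induced B (-0.64, adjusted p = 0.171). At miR-292a the ratio was 0.77 and 0.642 in wild type, 0.904 and 0.919 in knockout, 0.941 and 1.62 uninduced, and 1.18 and 1.55 induced. It rose by 0.81 ± 0.29 uninduced (adjusted p = 0.0376) and 0.95 ± 0.29 induced (adjusted p = 0.0146). The uninduced rise was lost with only the 2 groups fitted (adjusted p = 0.104) and without any 1 library of the wild type, uninduced B or induced libraries (adjusted p = 0.0523 to 0.262), and the induced rise without wild type B (0.82, adjusted p = 0.113) or induced B (0.75, adjusted p = 0.17).

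The ratio at miR-293 was 0.896 and 0.904 in wild type, 0.68 and 0.533 in knockout, 0.505 and 0.629 uninduced, and 0.579 and 0.739 induced. Wild type was again above all other libraries, and the call in the uninduced line (-0.68 ± 0.26, edgeR adjusted p = 0.0457) was lost with only the 2 groups fitted (adjusted p = 0.082) and without uninduced A or any 1 of the wild type or induced libraries (adjusted p = 0.0639 to 0.219). At miR-291b, whose 5p arm was counted 31 and 41 times in wild type and 64 and 87 times when induced, the 3p arm held 44.6% and 43.1% of the hairpin's counts in wild type A and B and 16.9% and 13.9% in induced A and B. In RefSeq mmu-miR-291b-5p differs from mmu-miR-291a-5p only at its first and last bases. The latter was counted 12252 and 13064 times in wild type and 17916 and 20055 times when induced. Whether some of those reads were counted as mmu-miR-291b-5p was not tested, so the miR-291b ratios are uncertain to that extent. The 5p arm of miR-291b rose in the induced line against wild type (0.93 ± 0.33, edgeR adjusted p = 0.0464), where the 3p arm fell. That call of the ratio (-2.10 ± 0.50, adjusted p = 0.00236) was lost without induced B (-1.92, adjusted p = 0.0505), and the uninduced call (-2.70 ± 0.99, adjusted p = 0.0408), on 2 counts of the 3p arm, without any 1 wild type, uninduced or induced library (adjusted p = 0.0639 to 0.303).

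At miR-292b the ratio was 0.582 and 1.12 in wild type, 0.699 and 2.36 in the knockout (line 1, line 2), 1.18 and 0.984 uninduced, and 0.505 and 0.377 induced. It fell with induction by 1.32 ± 0.39 (edgeR adjusted p = 0.0485). It was no longer called without any 1 uninduced or induced library (adjusted p = 0.117 to 0.412) and at 50 counts an arm (adjusted p = 0.0828). It was called higher in knockout without wild type B (1.07, adjusted p = 0.0325) or knockout line 1 (1.54, adjusted p = 0.00282), and lower in the induced line against wild type under 4 alternatives (adjusted p from 0.000556 to 0.00561), where the fit of all 8 libraries gave adjusted p = 0.0608. At miR-294 the ratio ran from 26.5 in knockout line 2 to 46.4 in line 1 with wild type at 41.8 and 40.7, and no comparison was called.

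**Figure D4:**
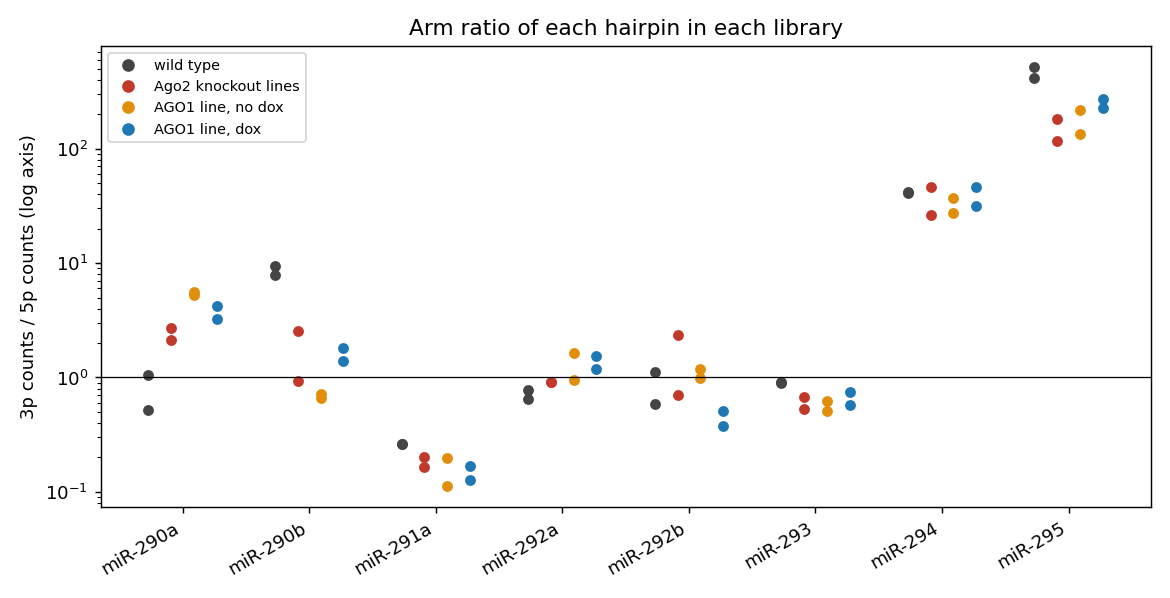
Ratio of 3p to 5p counts (log axis) of 8 hairpins in each library, with a line at equal arms; miR-291b is left out because its 3p arm had 0 counts in knockout. The wild type libraries are lowest at miR-290a (1.05 and 0.521) and miR-292a (0.77 and 0.642), and highest at miR-290b, miR-291a, miR-293 and miR-295.

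Of the 9 5p partner arms taken as a list, 2 rose and 5 fell in knockout against wild type, 2 rose and 4 fell in the uninduced line, 3 rose and 1 fell in the induced line, 3 rose with induction, and none was called between the uninduced line and knockout. Over all miRNAs 25.5% were called higher and 32.2% lower in the first of these comparisons, 25.9% and 33.3% in the second, 19.2% and 19.8% in the third, and 21.1% and 7.58% with induction. The miRNA outside the set whose log2 level was most alike over the 8 libraries was sought for each member among 377 with a mean of at least 20 CPM. It was mmu-let-7f-5p for mmu-miR-293-3p (Pearson r = 0.985), mmu-miR-329-3p for mmu-miR-291a-3p (r = 0.983) and mmu-miR-148b-3p for mmu-miR-291b-3p (r = 0.974). For mmu-miR-292a-3p it was mmu-miR-665-3p (r = 0.949), for mmu-miR-290b-3p mmu-let-7i-5p (r = 0.926), for mmu-miR-292b-3p mmu-miR-33-5p (r = 0.917) and for mmu-miR-290a-3p mmu-miR-125b-1-3p (r = 0.912). The lowest values were those of mmu-miR-295-3p with mmu-miR-293-5p (r = 0.861) and mmu-miR-294-3p with mmu-miR-361-5p (r = 0.842). These describe 8 libraries that share depth and group differences, and carry no p. The let-7 family, which rises as embryonic stem cells differentiate, summed to 1597 to 2005 CPM in wild type, 458 to 643 CPM in knockout, 447 to 526 CPM uninduced and 1034 to 1120 CPM induced.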

How the data were processed

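Raw counts of each mature miRNA in 8 small RNA libraries were deposited by the authors in 1 table, as whole numbers without normalization. Libraries were made with an Illumina TruSeq small RNA kit from total RNA, per the labels' protocols. Alignment tool and genome were Bowtie and mm10, per the submitters' processing notes. Not given in the sources used here are the version, the mismatches allowed, the treatment of reads with several matches and any use of strand. Of 2 header lines, which differ in 1 name, the first was used.

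Groups come from the sample labels. Of 1915 miRNAs, 901 had no count, and 475, with 99.9% of counts, passed edgeR's filterByExpr. edgeR 4.0.16 (with limma 3.58.1, R 4.3.3) fitted 1 quasi-likelihood model of the 8 libraries in 4 groups, with TMM factors of 0.881 to 1.22 and 4 residual degrees of freedom. Tests were 2-sided, and p-values were Benjamini-Hochberg adjusted over all miRNAs of a comparison. The fits were tested on simulated data. Arm ratios used edgeR with library, arm and arm by group as terms. Exact 95% intervals of count ratios are binomial. The text names the 9 members, their 5p arms, miRNAs outside the cluster with a member's seed that passed the filter, the miRNA most alike in pattern, and marker miRNAs at 0. Members, lists and tests were chosen with earlier results of these data known.

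Alternatives were DESeq2 size factors, library totals, TMM factors without the cluster, the DESeq2 1.42.0 Wald test, no abundance filter, a mean of at least 20 CPM, only the 2 groups compared, counts thinned to the smallest library, each library left out, the library letter as a replicate block, and 50 counts an arm. The fit of the block's 6 libraries without it was added after seeing the data. Sequences are RefSeq's and coordinates GENCODE vM21's, both on GRCm38.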

Additional observations from a re-analysis of the deposited data

How the results depend on the processing

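No called member or arm ratio changed sign under any alternative run, and 27 results that were not called did, between -0.26 and 0.65 on the log2 scale. Library totals in place of TMM factors moved the median of all miRNAs in knockout against wild type from -0.13 to 0.16 and the calls from 121 higher and 153 lower to 155 and 111. The 2 libraries a group, and 163467 counts in the shallowest, limit what could be called. Where a single library was left out, its group's lone library was assumed to vary like the others.

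Leaving out 1 library at a time gave 3 to 7 members called in knockout against wild type, 3 to 7 in the uninduced line against wild type, 0 to 7 in the induced line against wild type, 0 to 1 in uninduced against knockout and 0 to 4 with induction. Over all miRNAs it gave 195 to 274, 193 to 333, 75 to 258, 0 to 61 and 57 to 200 calls in the same order, and for arm ratios 42 to 58, 40 to 75, 46 to 74, 0 to 2 and 2 to 22. The members' share ran from 19.97 to 22.0% in wild type, 23.0 to 24.4% in knockout, 20.4 to 20.8% uninduced and 21.5 to 22.4% induced. The 0 members and 75 miRNAs called in induced against wild type came without induced B, and the 61 calls without knockout line 1.

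Uninduced against knockout gave 2 calls with library totals, 1 with TMM factors without the cluster, 5 with DESeq2 and 14 without an abundance filter. With only the 2 groups fitted, 8 members were called in induced against wild type, and arm ratio calls were 0 in uninduced against knockout and 20 with induction. Without the filter 5 members were called with induction. Thinned to the smallest library, calls were 175 in knockout, 175 in uninduced and 102 in induced against wild type and 68 with induction, and 3 members were called in each of uninduced and induced against wild type. Leaving the cluster's other miRNAs out of the denominator gave shares of 25.3% in knockout, 21.7% uninduced and 23.3% induced. Differences of library A and B between groups correlated at 0.0526, -0.00721 and 0.197 over 475 miRNAs, the last between the 2 groups of the AGO1 line. The labels do not say that a letter marks a shared culture or day, so the letters were not taken to pair the libraries. With letters as a replicate block, 8 members were called in uninduced and 8 in induced against wild type and 6 with induction, and calls over all miRNAs were 321, 250 and 193. The same 6 libraries without the block gave 7, 8 and 4 members and 320, 255 and 201 calls.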
